A study of Mus musculus with 4 samples.

Results

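The comparison described here sets whole lung 18 h after an inhaled dose of hexamethylene diisocyanate (HDI) against unexposed lung, across all genes of the array. Its members are 2 of the 4 arrays of the series, chosen by their titles. The unexposed group was a pool of whole lungs from mice of the inbred strain C57BL/6J, and its title gives it as 0 h. The 18 h group was a pool of whole lungs of the same strain taken 18 h after an aerosol of HDI at 10 mg per cubic metre. Each pool gave total RNA for 1 array of the type MG_U74Av2, which reads each gene by 1 or more probe sets. The number of mice in a pool, the length of exposure, the hour of day at collection and whether unexposed mice breathed a sham aerosol are not stated in the labels. With 1 array per group there is no replicate check, so a fold below compares these pools and carries no test.

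HDI is a small molecule with a reactive isocyanate group at each end, used to harden polyurethane paints. Isocyanates bind thiols and amines of proteins and of glutathione, and inhaled HDI irritates and can sensitise the airways. Injured lung epithelium typically makes keratins and cornified envelope proteins, sends cytokine signals through STAT3, and secretes acute phase proteins. Oxidised or misfolded proteins call on glutathione, heat shock chaperones and the proteasome, the barrel-shaped protease that degrades ubiquitin-tagged proteins.

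A level is the deposited intensity after the arrays were scaled to a common trimmed mean, in scaled units. Values under a floor of 77.7 units were not taken as measured, so a gene at the floor in 1 pool gives only a bound. Levels of different genes come from different probes and are not set against each other. Of 8251 genes on the array, 6040 were above the floor in at least 1 of these pools and were compared. The main markers of lung tissue were well above the floor in both pools. Surfactant protein gene Sftpc had 9874 and 9136 units, the club cell gene Scgb1a1 10634 and 8360.0 units, and the alveolar type I gene Ager 4447 and 4216 units, in unexposed and 18 h lungs. Sftpd, another surfactant gene, was at the floor in both. The array's 3' control probe set for beta-actin read 8155 and 7917 units, and the one for Gapdh 1860 and 2973. The Gapdh control signal at the 3' end over that at the 5' end, which is lower in intact RNA, was 1.21 and 1.12. Without scaling, the median log2 difference of all compared genes moved from -0.01 to 0.12.

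At 18 h 96 of the 6040 genes (1.59%) were at least 2-fold higher and 57 (0.944%) at least 2-fold lower. Below, "rose" and "fell" mean a difference of at least 2-fold, and smaller differences are given as values. At least 1.5-fold, 410 genes (6.79%) were higher and 370 (6.13%) lower, and 48.1% of all genes lay above 0. The counts of every list below are to be read against these shares of all genes. The higher genes had a median unexposed level of 145 units and the lower genes one of 276, against 184 for all compared genes. Bounds made up 26 of the 96 and 9 of the 57. Among genes measured in both pools, the 8 highest were Lrg1, Mt2, Lcn2, Hspa1b, Tnc, Serpina3n, Timp1 and Mt1, and the largest bounds were those of Rpl39l, Acta1 and Emc10. Among the genes that fell, Lhx6 and the clock repressor gene Nr1d1 were the lowest measured in both pools, and Hrh2 gave the largest bound. As a measure of probe set noise, 2 probe sets of the same gene differed with a robust SD of 0.28 log2 units over 286 genes. This covers neither differences between animals nor between hybridisations.

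**Figure D1:**
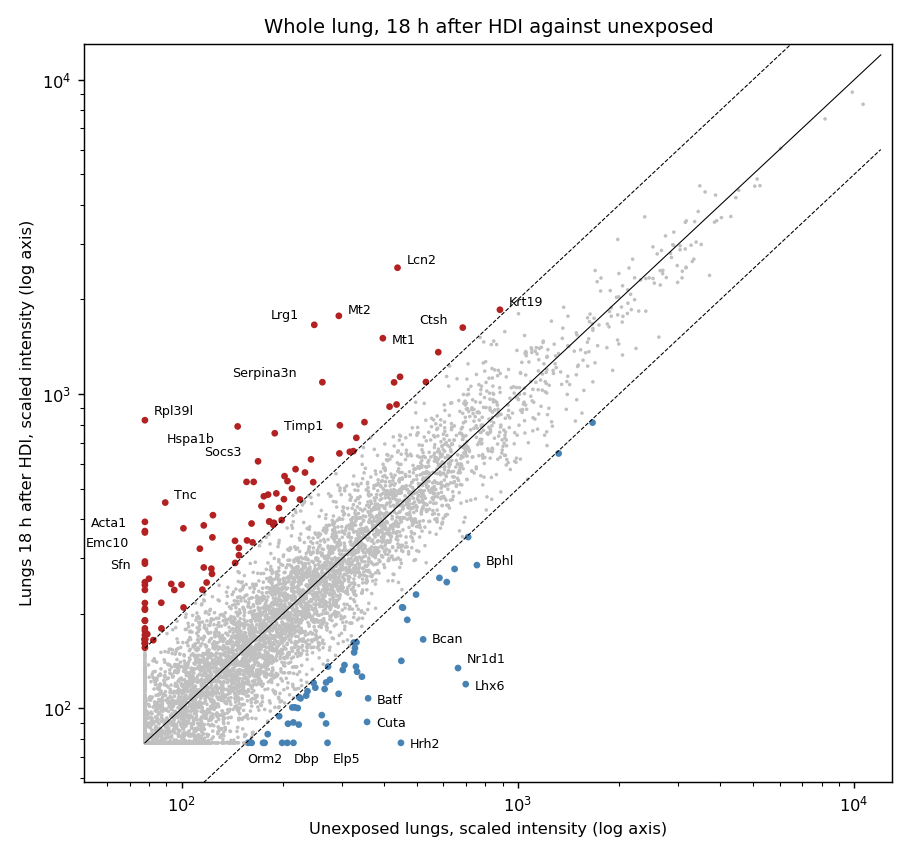
Each dot is 1 of the 6040 compared genes, with its level in unexposed lungs on the x axis and at 18 h after HDI on the y axis, in scaled intensity on log axes. Red dots are the 96 genes at least 2-fold higher, blue dots the 57 at least 2-fold lower, dashed lines mark 2-fold, and genes at the floor of 77.7 sit on the left or bottom edge; Lrg1, Lcn2, Mt2 and Tnc lie far above the upper line and Lhx6 and Nr1d1 far below the lower one.

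Acute phase and airway defence genes split between a few steep rises and a larger number that hardly differed. Lrg1, an acute phase glycoprotein with leucine-rich repeats, was at 248 units in the unexposed pool and 1661 units at 18 h, a rise of 6.7-fold. Lcn2, which withholds iron from bacteria by binding their siderophores, was at 438 units in the unexposed pool and 2524 units at 18 h (5.76-fold), with a log2 difference of 1.84 by the second probe set. Serpina3n, an inhibitor of serine proteases, was at 262 units in the unexposed pool and 1091 units at 18 h (4.16-fold). Each of the 3 read higher at 18 h than at 6 or 90 h. Lrg1 read 248, 759.7, 1661 and 409 units in the unexposed, 6, 18 and 90 h pools, and Lcn2 438, 824, 2524 and 667. Cd14, a co-receptor for endotoxin, rose 2.13-fold, and Saa3, a serum amyloid A protein made outside the liver, rose at least 2.27-fold from the floor to 177 units. Chil1, a chitinase-like protein, was 1.7-fold higher and ceruloplasmin gene Cp 1.49-fold higher.

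Other members of the same list stayed under 2-fold or fell. Haptoglobin gene Hp read 3901 units in the unexposed pool and 3560.2 units at 18 h, and lipopolysaccharide-binding protein gene Lbp had a log2 difference of 0.48. Orm2, an orosomucoid that carries drugs in plasma, fell at least 2.65-fold, from 206 units to the floor, and it was at the floor at 6 and 90 h too. Ltf, the milk and granule protein lactoferrin, was 1.79-fold lower. In all, 5 of 21 compared members rose, 1 fell, and 11 lay above 0. The list's median of 0.01 sat beside -0.01 for all genes. It was higher under all 10 alternatives, from 0.20 with a pseudocount in place of the floor to 0.50 without scaling. Median scaling gave 0.21, cyclic loess 0.22, and leaving out genes at the floor in 1 pool 0.41. So the value near 0 belongs to the main setting alone.

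Genes of the IL-6 family signal, which runs from a cytokine through gp130 receptors, JAK kinases and STAT3 to C/EBP factors and the feedback inhibitor SOCS3, were mostly higher. Of 28 compared members 3 rose, 9 were at least 1.5-fold higher (32.1%, against 6.79% of all genes), and 22 were above 0, with a median of 0.34. The cytokines Il6 and Il11 were at the floor in both pools. Among receptors, Osmr, the oncostatin M receptor, rose 2.16-fold, from 182 to 393 units, and Il4ra, which binds IL-4 and IL-13, was 1.97-fold higher. Lifr, the leukemia inhibitory factor receptor, was 1.5-fold lower. Stat3 itself read 339 and 472 units (1.39-fold higher). Socs3, the inhibitor that STAT3 induces, rose 3.62-fold, from 169 to 611 units, with a log2 difference of 1.87 by its other probe set. Cebpd, an inflammatory transcription factor, rose 2.55-fold, from 446 to 1135 units, and its relative Cebpb was 1.66-fold higher. Bcl3, a nuclear partner of NF-kappa-B, was 1.71-fold higher.

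Promoter sequences of genes in these groups were read from RefSeq for the mouse build GRCm38.p6. They reach from 250 bases before to 50 after each gene's start, and only the 250 bases before it were searched. Sites were searched on both strands, by exact letters with N for any base. Each stretch printed here and below was placed around a match, so it holds one by choice. Other genes of the same lists may have none. The Socs3 window holds a STAT-type TTCNNNGAA, in capitals, at chr11:117969487-117969546 on the minus strand.

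Socs3: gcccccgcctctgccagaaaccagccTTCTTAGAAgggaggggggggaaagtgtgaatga

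This motif, which reads the same way on the other strand, stands in 7.02% of 32851 promoters. Of the 96 genes that rose, 78 had a promoter in the table, and 4 of the 78 held it: Socs3, the chemokine genes Ccl17 and Cxcl14, and Sec23b. A gene was counted where any of its promoters held the motif. By that count the share was 5.13% of the 78 and 7.04% of the compared genes with a promoter. A match describes letters and does not show that a factor binds.

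Genes of injured and transitional epithelium gave the highest count of rises among the 60 lists. Of 42 compared members 11 rose and none fell. The median was 0.61, and 22 were at least 1.5-fold higher (52.4%, against 6.79% of all genes). Tnc, the matrix glycoprotein tenascin C laid down in wounds, was at 89.3 units in the unexposed pool and 452 units at 18 h (5.06-fold), with 1.44 log2 units by its other probe set. Sfn, an epithelial 14-3-3 protein, went from the floor to 289 units, at least 3.72-fold higher. Sprr1a, a precursor of the cornified envelope of stressed epithelium, was at 175 units in the unexposed pool and 473 units at 18 h (2.7-fold). Lgals3, the lectin galectin-3, rose 2.2-fold and is made by macrophages too. Cdkn1a, the cell cycle inhibitor p21, rose 2.4-fold by its brightest probe set, while its other one gave 0.19 log2 units.

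The keratins of simple epithelia moved together. Krt18 was at 206 units in the unexposed pool and 529 units at 18 h (2.56-fold). Krt8, its filament partner, was at 435 units in the unexposed pool and 927 units at 18 h (2.13-fold), and Krt19 at 884 units in the unexposed pool and 1855 units at 18 h (2.1-fold). Krt7 was 1.96-fold higher. These 4 keratins of simple epithelium thus stood between 1.96-fold and 2.56-fold. Krt5, a keratin of basal cells, went the other way, from 142 units to the floor (at least 1.83-fold lower). Krt17, a keratin of wounded epithelium, rose 3.24-fold by a probe set with a suffix for possible cross-hybridisation, but the other one gave -0.78 log2 units, so its direction is not settled.

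The EGF receptor system, which drives spreading and repair of epithelium, split evenly, with a ligand among the higher and some receptors among the lower genes. Hbegf, heparin-binding EGF-like growth factor, was at 218 units in the unexposed pool and 577 units at 18 h (2.65-fold). Errfi1, a feedback inhibitor of the receptor, was 1.9-fold higher, and Dusp6, a phosphatase that ends ERK signals, 1.69-fold higher. Receptor gene Egfr was 1.65-fold lower, at 139.6 and 84.5 units. Erbb4, a related receptor, was 1.54-fold lower, and the adaptor gene Grb7 1.58-fold lower. Erbb3 hardly differed, with a log2 difference of 0.05. Of 13 compared members 1 rose, 3 were at least 1.5-fold higher and 3 at least 1.5-fold lower. The median of -0.15 turned to 0.02 under an alternative that averaged probe sets. Outside these lists Epha2, an ephrin receptor of epithelium, rose 2.07-fold; it was chosen after its value was seen.

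Among matrix proteases and their inhibitors 2 genes rose. Timp1, which blocks matrix metalloproteinases, was at 189 units in the unexposed pool and 751 units at 18 h (3.97-fold), and its 6 and 90 h levels were 210.1 and 199.6. The second probe set of Timp1 was at the floor in both pools. Mmp3, the metalloproteinase stromelysin-1, rose 2.5-fold, from 86.9 to 217 units. Plaur and Plau, the urokinase receptor and urokinase, were at least 1.91-fold and at least 1.88-fold higher. Reck, a membrane inhibitor of metalloproteinases, was 1.91-fold higher, and the macrophage elastase gene Mmp12 at least 1.62-fold higher. Of 25 compared members 6 were at least 1.5-fold higher and none as much lower, with a median of 0.10.

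In the clotting list the one gene that rose was F3. F3, tissue factor, which starts the clotting cascade on exposed cells, was at 164 units in the unexposed pool and 526 units at 18 h (3.21-fold). Factor X gene F10 was at least 1.49-fold higher and Procr, the endothelial protein C receptor, at least 1.46-fold higher. Thrombomodulin gene Thbd, which turns thrombin into an anticoagulant, was 1.42-fold lower. The list's median of 0.16 in 17 genes turned to -0.18 when genes at the floor in 1 pool were left out, so the list has no settled direction.

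Collagens and matrix glycoproteins were more often lower than higher. Of 50 compared genes 6 were at least 1.5-fold lower (12%, against 6.13% of all genes) and 3 as much higher, with a median of -0.14. Col3a1, a fibrillar collagen chain, was 1.54-fold lower, Col6a3 1.61-fold lower and Postn, the matricellular protein periostin, 1.57-fold lower. Ogn, a small proteoglycan, was 1.81-fold lower, and Npnt, an integrin ligand of the alveolar basement membrane, 1.88-fold lower. Lamb3, a laminin chain of epithelial anchoring complexes, was 1.82-fold higher, so it and Tnc stood on the other side of their list. Igfbp3, which binds insulin-like growth factors, fell 2.74-fold, from 261 to 95.2 units, and its other probe set gave -0.88.

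**Figure D2:**
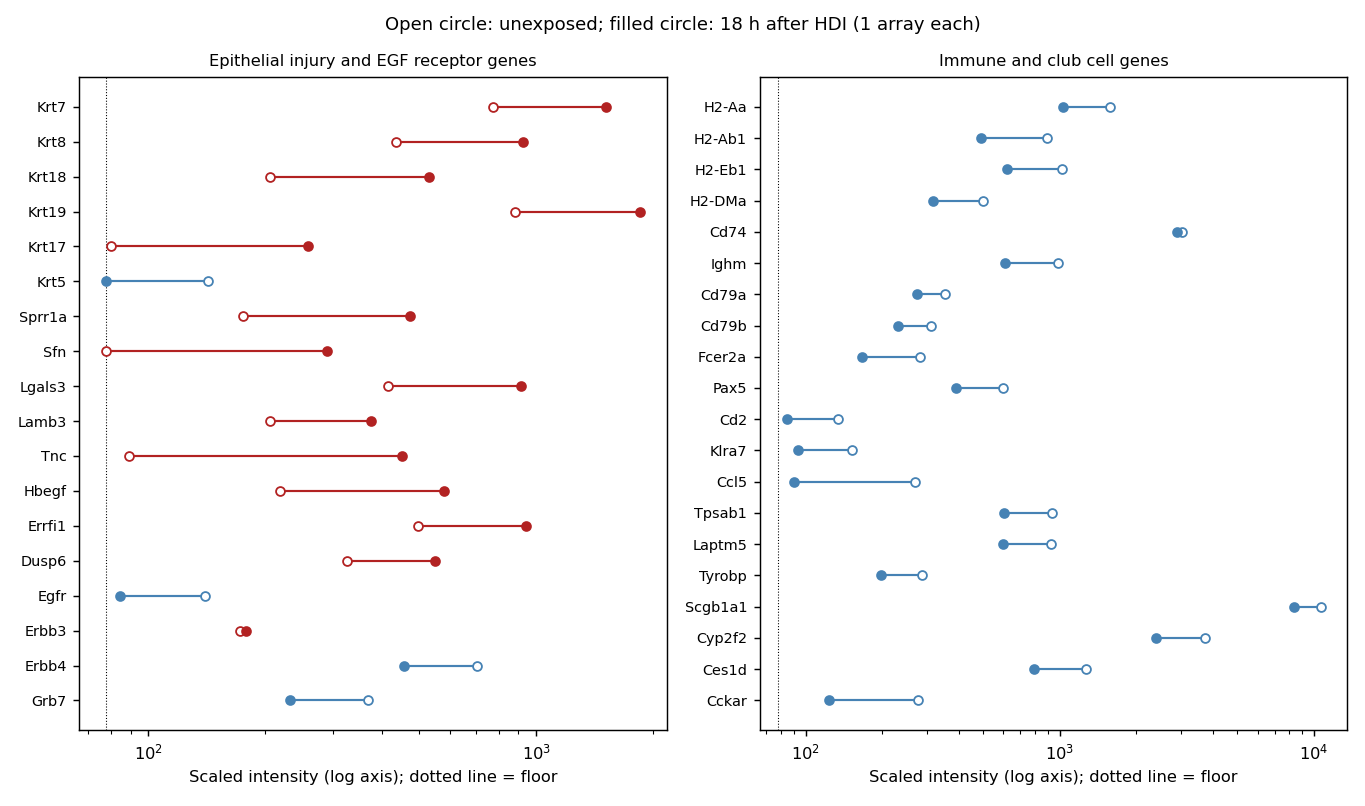
Levels of 18 genes of epithelial injury and the EGF receptor system (left) and 20 immune and club cell genes (right), in scaled intensity on log axes, with open circles for unexposed lungs and filled circles for 18 h after HDI; red lines are higher and blue lines lower at 18 h, and the dotted line is the floor. Krt8, Krt18, Krt19, Sprr1a, Tnc and Hbegf moved right while Egfr, Erbb4 and the immune and club cell genes shown moved left. The right panel leaves out members of these lists that were higher, such as Cd14, Ctsk, Ccl17 and Aldh3a1.

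Heat shock genes were higher across most of their list. Of 34 compared members 4 rose, and 11 were at least 1.5-fold higher (32.4%, against 6.79% of all genes). In all, 30 were above 0, and the median was 0.42. Hspa1b, an inducible 70 kDa chaperone, was at 147 units in the unexposed pool and 789 units at 18 h (5.38-fold). Hspa1a, its near-identical copy, went from the floor to 363 units (at least 4.67-fold higher). Signals of this pair cannot be taken as independent. Hspb8, a small heat shock protein, rose 2.37-fold and Hsph1, which exchanges nucleotide on Hsp70, 2.08-fold. Dnaja1, an Hsp40 partner of Hsp70, was 1.87-fold higher, and Stip1, which links Hsp70 to Hsp90, 1.83-fold higher. The mitochondrial chaperonin pair Hspd1 and Hspe1 were 1.61-fold and 1.52-fold higher. Hspa4 and Dnaja2 had log2 differences of -0.12 and -0.14, so not every Hsp70 partner was higher.

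The promoter of Hspe1, which lies back to back with Hspd1, holds 2 overlapping matches of the heat shock element, 1 on each strand, at chr1:55088054-55088082 on the plus strand, in capitals here. The element was searched as GAA, any 2 bases, TTC, any 2 bases and GAA.

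Hspe1: gtccgTTCTAGAACCTTCCGGAAggcccc

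The element stands in 0.466% of all promoters and, counted by gene, in 0.495% of the compared genes with a promoter. Among the 78 genes that rose and had a promoter, 1 held it, Nnat. Hspa1b, Hspa1a, Hspb8 and Hsph1 had no exact match or no promoter in the table.

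The cytosolic chaperonin CCT, a ring of 8 kinds of subunit that folds actin and tubulin, was higher in all 8 compared subunits. Cct3 rose 2.19-fold, from 156 to 342 units. The other 7 lay between 1.16-fold (Tcp1) and 1.36-fold (Cct4). The median was 0.40. Averaged over its probe sets, Cct3 was under 2-fold.

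Folding genes of the endoplasmic reticulum were higher to a smaller degree. Of 33 compared genes 1 rose, 8 were at least 1.5-fold higher (24.2%, against 6.79% of all genes), and the median was 0.30. Sec23b, a coat protein of vesicles that leave the reticulum, rose 2.23-fold, from 195 to 434 units. Hspa5, the chaperone BiP, was 1.73-fold higher, Manf, a secreted stress protein, 1.65-fold higher, and the translocon gene Sec61a1 1.61-fold higher. Hsp90b1 and P4hb, which fold secreted proteins as well, had log2 differences of -0.25 and -0.43. In the integrated stress response, in which ATF4 answers blocked translation, 0 of 20 members rose, and the median of 0.20 turned to -0.03 with a higher floor. Atf4 was 1.52-fold higher and Slc3a2, an amino acid transporter chain, 1.73-fold higher.

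Proteasome genes were higher in nearly every member. Of 35 compared members 34 were above 0, 22 were at least 1.5-fold higher (62.9%, against 6.79% of all genes), 4 rose, and the median was 0.63. All 7 subunits of the alpha ring, which gates the barrel, were at least 1.5-fold higher, from 0.61 to 1.35 log2 units with a median of 0.70. Psma5 was at 242 units in the unexposed pool and 619.9 units at 18 h (2.56-fold). Of the 7 standard beta subunits, some of which carry the active sites, 5 were at least 1.5-fold higher, with a median of 0.80. Psmb3 was at 428 units in the unexposed pool and 1089.7 units at 18 h (2.54-fold), and Psmb7, a catalytic subunit, at 347 units in the unexposed pool and 676 units at 18 h (1.95-fold).

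In the 19S cap, which binds and unfolds ubiquitin-tagged proteins, the members without ATPase activity were higher in 9 of 10 cases by at least 1.5-fold, with a median of 0.66. Psmd14, which removes ubiquitin from the substrate, was at 191 units in the unexposed pool and 483 units at 18 h (2.53-fold), and Psmd3 at 232 units in the unexposed pool and 455 units at 18 h (1.96-fold). The 6 ATPases of the cap had a median of 0.51. Psmc2 was at 198 units in the unexposed pool and 397 units at 18 h (2.0-fold), the only ATPase at least 1.5-fold higher. Psmc4 and Psmc5 had log2 differences of 0.06 and 0.14. Psmd9 and Psmd10, which are assembly chaperones rather than subunits, had -0.02 and 0.01.

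The immunoproteasome subunits, which interferon induces to replace standard beta subunits, were on the other side of 0. Psmb8, Psmb9 and Psmb10 had log2 differences of -0.28, -0.53 and -0.33. In the list of immunoproteasome and antigen processing genes 0 of 14 rose or fell and 10 were below 0, with a median of -0.21. Tap1, a peptide transporter, and B2m, the light chain of MHC class I, had -0.40 and -0.32. Psme3, an activator of the nuclear proteasome, was 1.56-fold higher. Other ubiquitin genes were less uniform, with a median of 0.23 and none past 2-fold. Of 36, 3 were at least 1.5-fold higher (8.33%), near the 6.79% of all genes. Sqstm1, the autophagy receptor p62, was 1.58-fold higher and Vcp, an ATPase that extracts tagged proteins, 1.47-fold higher.

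**Figure D3:**
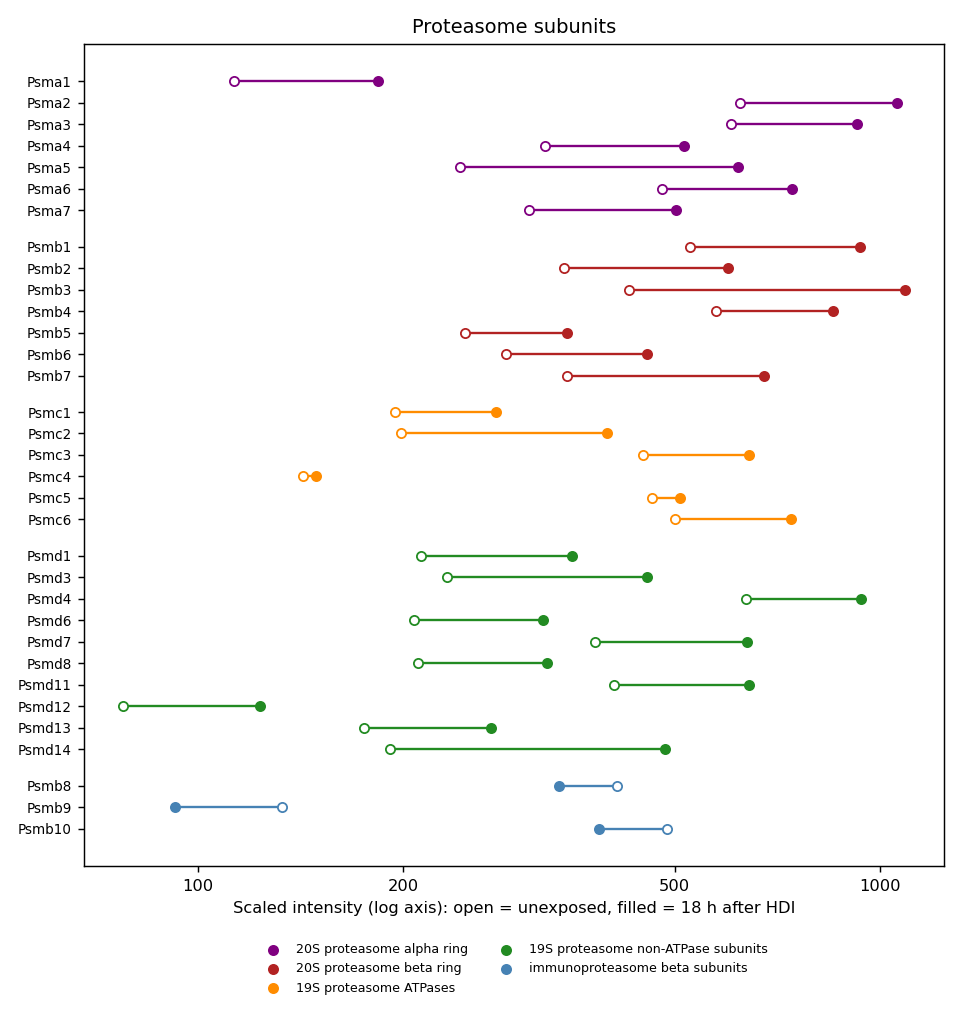
Levels of proteasome subunits in unexposed lungs (open circles) and 18 h after HDI (filled circles), in scaled intensity on a log axis and coloured by part of the particle. All subunits shown of the alpha and beta rings and of the cap moved right, Psmc4 and Psmc5 least, and the 3 immunoproteasome subunits Psmb8, Psmb9 and Psmb10 moved left.

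Of the glutathione genes, those at least 1.5-fold higher included both subunits of the enzyme that limits its synthesis, the reductase and suppliers of NADPH. Of 14 compared members 3 rose and 8 were at least 1.5-fold higher (57.1%, against 6.79% of all genes), with a median of 0.68. Gclc, the catalytic subunit of the enzyme that limits its synthesis, was at 213 units in the unexposed pool and 501 units at 18 h (2.35-fold), and its modifier subunit gene Gclm was at least 1.84-fold higher. Gsr, glutathione reductase, was at 148 units in the unexposed pool and 324 units at 18 h (2.19-fold). Glrx, glutaredoxin, rose 2.05-fold. In the pentose phosphate pathway, a source of NADPH, Taldo1 was 1.92-fold higher, Pgd 1.72-fold higher and Tkt 1.6-fold higher. Me1, malic enzyme, another source, was 1.61-fold higher. The peroxidases Gpx1, Gpx2 and Gpx3 had log2 differences of -0.14, -0.44 and 0.15, and Gss, which completes the tripeptide, -0.10.

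Other targets of NRF2, the factor freed when its sensor's thiols are modified, were partly higher. Of 24 compared genes 1 rose and 6 were at least 1.5-fold higher (25%, against 6.79% of all genes). Srxn1, which repairs oxidised peroxiredoxins, went from the floor to 162 units (at least 2.08-fold higher). Txnrd1, thioredoxin reductase, was 1.93-fold higher, Hmox1, which breaks down heme, 1.52-fold higher, and Nfe2l2, the gene of NRF2, 1.56-fold higher. These levels followed higher ones at 6 h. Gclc read 213, 1496, 501 and 255 units in the unexposed, 6, 18 and 90 h pools, Txnrd1 170.3, 904, 329 and 176, and Hmox1 335, 1881, 510.1 and 309.8. Cat, catalase, was 1.41-fold lower. Among glutathione S-transferases 1 of 17 rose, the microsomal Mgst3 (2.3-fold), while Gstp1, the pi class enzyme, was 1.66-fold higher and Gstm1 had a log2 difference of -0.17.

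The antioxidant response element searched, TGANTCAGC, overlaps the AP-1 site by its first 7 letters. The Srxn1 promoter holds it at chr2:152105449-152105508 on the plus strand, and the Sprr1a promoter holds it on the opposite strand at chr3:92486000-92486059, printed on the gene's own minus strand. Capitals mark the match.

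Srxn1: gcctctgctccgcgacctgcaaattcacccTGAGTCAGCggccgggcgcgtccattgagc

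Sprr1a: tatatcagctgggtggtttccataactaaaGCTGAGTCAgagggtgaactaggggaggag

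The element stands in 1.02% of all promoters and, counted by gene, in 1.57% of the compared genes with a promoter. Among the 78 genes that rose and had a promoter it stood in 5 (6.41%): Srxn1, Sprr1a, Mt2, Smap1 and Tmem37. Gclc, Gsr and Glrx had no exact match or no promoter in the table. No test was made of this share.

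Metallothioneins, small cysteine-rich proteins that bind zinc and other metals, were among the steepest rises. Mt1 was at 396 units in the unexposed pool and 1506 units at 18 h (3.8-fold) and Mt2 at 293 units in the unexposed pool and 1774 units at 18 h (6.05-fold). Both were higher still at 6 h, with 3892 and 3956 units, and back near the unexposed level at 90 h, with 446 and 261. The other 11 compared genes of the list did not follow. The zinc exporter gene Slc30a1, which answers to zinc as the metallothioneins do, had a log2 difference of 0.05, and Mt3, a brain form, -0.24.

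The Mt2 promoter holds 3 matches of the metal response core, searched in the spellings TGCACNC and TGCGCNC, in capitals at chr8:94172388-94172577 on the plus strand, the last of them on the opposite strand.

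Mt2: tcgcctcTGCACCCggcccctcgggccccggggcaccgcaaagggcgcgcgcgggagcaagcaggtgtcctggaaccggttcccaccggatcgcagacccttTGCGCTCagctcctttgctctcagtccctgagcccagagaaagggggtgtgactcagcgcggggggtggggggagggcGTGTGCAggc

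The spellings stand in 10.4% and 12.5% of all promoters. Among the 78 genes that rose and had a promoter, 17 (21.8%) and 15 (19.2%) held them, against 12.5% and 24.5% of the compared genes. Both spellings are short and common, so single matches say little.

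Metallothioneins also belong to genes that glucocorticoids and fasting induce, and that list was mostly higher at 18 h. Of 31 compared members 22 were above 0, 7 rose and 1 fell, with a median of 0.43. At least 1.5-fold higher were 13 (41.9%, against 6.79% of all genes), and 3 were as much lower (9.68%, against 6.13%). Besides Mt1, Mt2, Lcn2, Cebpd and Cdkn1a, the members that rose were Angptl4, an inhibitor of lipoprotein lipase, at 181 units in the unexposed pool and 479 units at 18 h by a marked probe set, and Gadd45g, a growth arrest gene, from the floor to 191 units. The only other Angptl4 probe set compared gave 1.68 log2 units, but with all its probe sets averaged, those at the floor included, the difference was 0.77, under 2-fold. Zbtb16, which glucocorticoids induce strongly, fell 2.12-fold by a marked probe set and had a log2 difference of -0.07 without such probe sets. Txnip, which binds thioredoxin, was 1.72-fold lower and Klf9, a direct target of the receptor, 1.4-fold lower. Of 27 immediate early genes 2 rose, Junb (2.33-fold) and Egr1 (2.2-fold), while Jun had a log2 difference of -0.16.

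Genes that build ribosomes were higher without the ribosomal proteins themselves. Of 37 nucleolar and ribosome assembly genes 9 were at least 1.5-fold higher (24.3%, against 6.79% of all genes). The median was 0.19, with 33 above 0. Nhp2, which guides pseudouridine formation in ribosomal RNA, rose 2.27-fold, from 123 to 278 units. Fbl, the methylase fibrillarin, was 1.97-fold higher and Ncl, nucleolin, 1.74-fold higher. Odc1 and Srm, which make the polyamines putrescine and spermidine, were 1.97-fold and 1.9-fold higher. Of 26 ribosomal protein genes none was as much as 1.5-fold higher, and their median of -0.04 changed sign between scalings.

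The apparatus of translation lay between. Of 19 aminoacyl-tRNA synthetase genes 16 were above 0, with a median of 0.35. At least 1.5-fold higher were 5 (26.3%, against 6.79% of all genes). Aimp2, a scaffold of the multi-synthetase complex, was at 116 units in the unexposed pool and 382 units at 18 h (3.29-fold), apart from the synthetases, of which Hars was the next with at least 1.58-fold. Translation factors had a median of 0.25, with Eif4a1, the helicase of cap recognition, 1.73-fold higher and Eif1a 1.94-fold higher. Among nuclear transport genes Ipo5, an importin, rose at least 2.13-fold, Ran, the GTPase that gives transport its direction, was 1.85-fold higher, and Ranbp1 1.69-fold higher. Cell division did not move with them: 0 of 17 mitosis genes were at least 1.5-fold higher, and 21 others were at the floor in both pools. Of 25 DNA replication genes 1 was at least 1.5-fold higher, Mcm3, with at least 1.51-fold.

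Sterol synthesis genes were higher along the isoprenoid pathway. Of 16 compared members 3 rose, and 6 were at least 1.5-fold higher (37.5%, against 6.79% of all genes). In all, 14 were above 0, with a median of 0.41. Early in the pathway, Hmgcs1, which makes HMG-CoA, read 301 and 424 units (1.41-fold higher). Idi1 and Fdps, which make the isoprenoid units and join them, rose 2.16-fold and 2.06-fold. With probe sets averaged, Fdps had a log2 difference of 0.55, under 2-fold, and the list's median was 0.22. Sqle, which oxidises squalene, rose 2.12-fold, from 119 to 252 units, and the later enzymes Msmo1 and Cyp51 were 1.82-fold and at least 1.55-fold higher. Tm7sf2, a sterol reductase, was 1.39-fold lower, and Srebf1, a regulator of lipid synthesis, had a log2 difference of -0.17. The Hmgcs1 promoter, chosen because it is a textbook target of SREBP, holds the sterol regulatory sequence TCACCCCAC at chr13:119690184-119690243 on the plus strand, in capitals.

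Hmgcs1: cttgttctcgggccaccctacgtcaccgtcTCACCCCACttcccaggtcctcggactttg

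These letters stand in 0.496% of all promoters and, counted by gene, in 0.722% of the compared genes with a promoter. They stood in 0 of the 78 genes that rose and had a promoter, so Idi1, Fdps and Sqle had no exact match or no promoter in the table.

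Some genes of lipid transport were lower. Abcg1 and Abca1, which export cholesterol, were 1.7-fold and at least 1.78-fold lower, and Apoe, an apolipoprotein of macrophages, was 1.61-fold lower. Cd36, a fatty acid and lipoprotein receptor, was 1.94-fold lower by its brightest probe set and had 0.18 by another. Plin2, which coats lipid droplets, was 1.96-fold higher. In the fatty acid list as a whole 2 of 37 were at least 1.5-fold higher and 4 as much lower, and its median changed sign between scalings. In glycolysis Ldha was 1.76-fold higher, Pgk1 1.7-fold higher and Pkm 1.59-fold higher, with 5 of 28 at least 1.5-fold higher. Of 60 respiratory chain genes 40 were above 0 (median 0.14) and 4 at least 1.5-fold higher (6.67%, near the 6.79% of all genes). Cycs, cytochrome c, was 1.76-fold higher.

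**Figure D4:**
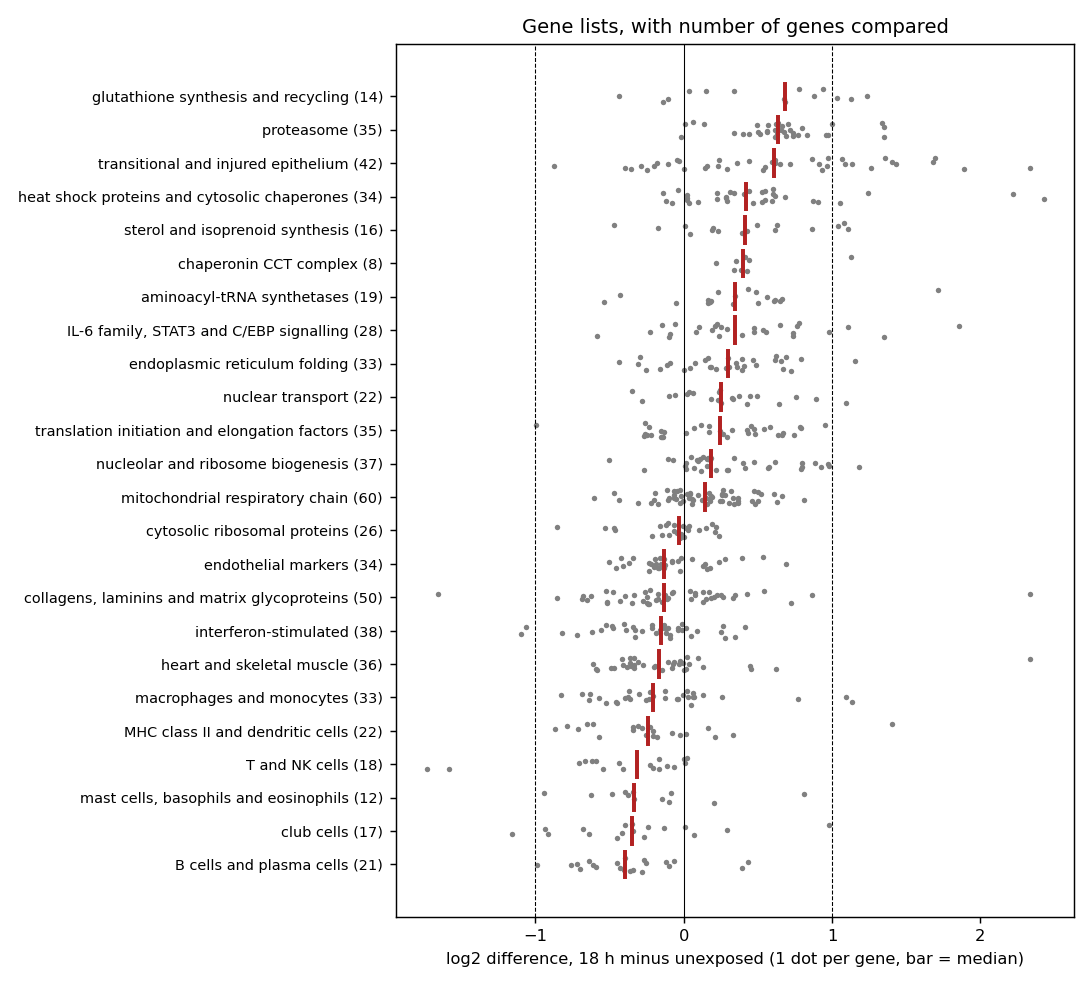
Log2 differences at 18 h against unexposed lungs for 24 of the 60 gene lists, with 1 grey dot per compared gene, the number of genes in brackets, a red bar at the median, and dashed lines at 2-fold. Medians run from 0.68 for glutathione synthesis and recycling, 0.63 for the proteasome and 0.61 for injured epithelium down to -0.39 for B cells and plasma cells.

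Clock genes differed in both directions. In the molecular clock, CLOCK or NPAS2 with ARNTL drive the repressors PER, CRY and NR1D1 and the output factors DBP and TEF, and NR1D1 represses Arntl. Nr1d1 was at 663 units in the unexposed pool and 134 units at 18 h (4.94-fold lower), with 364 at 6 h and 84.5 at 90 h. Dbp fell at least 2.77-fold, from 215 units to the floor. Nr1d2, a relative of Nr1d1, was 1.98-fold lower and Tef 1.42-fold lower. On the other side Npas2 was 1.67-fold higher, Arntl at least 1.54-fold higher, Clock 1.53-fold higher and Cry1 1.46-fold higher. Of 23 compared members 2 fell and none rose, 5 were at least 1.5-fold higher and 3 as much lower, and the median was 0.01. Per1, a repressor that stress hormones also induce, had a log2 difference of 0.30. The hour of day of either pool is not given, and its part in these values was not tested.

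**Figure D5:**
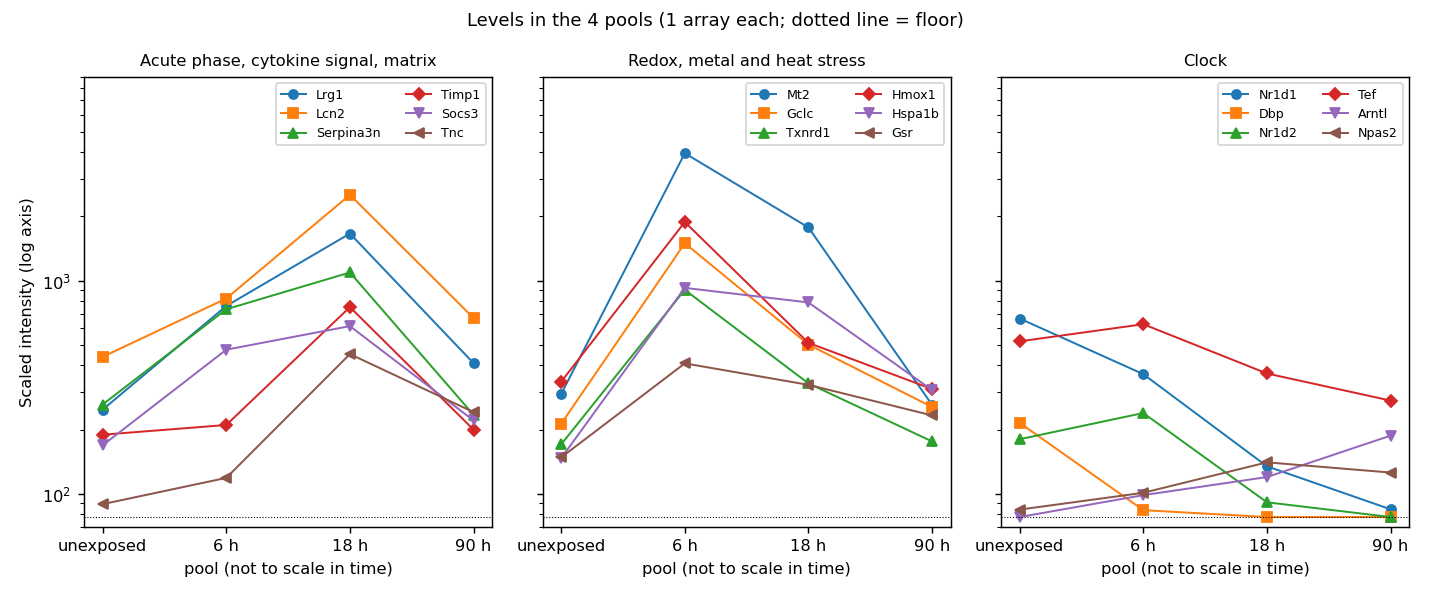
Levels of 18 genes in the unexposed, 6, 18 and 90 h pools, in scaled intensity on a log axis, with 1 array per pool and the floor of 77.7 as a dotted line. Lrg1, Lcn2, Serpina3n, Timp1, Socs3 and Tnc were highest in the 18 h pool, Mt2, Gclc, Txnrd1, Hmox1, Hspa1b and Gsr in the 6 h pool, and Nr1d1 stepped down across the pools.

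Genes of lymphocytes were lower. In whole lung, fewer cells of a type and less RNA per cell cannot be told apart. Of 21 compared B cell and plasma cell genes 19 were below 0 and 7 at least 1.5-fold lower (33.3%, against 6.13% of all genes), none past 2-fold, with a median of -0.39. Ighm, the heavy chain of IgM, read 987 and 607 units (1.63-fold lower), Fcer2a, the low-affinity IgE receptor, 283 and 167 units (1.7-fold lower), and the lineage factor gene Pax5 597 and 391 units (1.53-fold lower). Cd79a and Cd79b, the signalling chains of the B cell receptor, were 1.29-fold and 1.35-fold lower. Xbp1 and Sdc1, which plasma cells share with epithelium, were the 2 members above 0, with 0.39 and 0.43. The summed level of the list was 7951, 5927, 5989.9 and 6107 units in the unexposed, 6, 18 and 90 h pools. It was thus lower in every exposed pool, against the same unexposed array. All 6 immature B cell genes lay below 0, with a median of -0.62. So did all 8 compared genes of a thymus and immature T cell list, with a median of -0.28. The summed levels of that thymus list were 3873, 2686, 2510 and 2744 units in the same order.

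T cell and NK cell genes had 16 of 18 members below 0, 6 at least 1.5-fold lower and 2 that fell, with a median of -0.32. A further 22 were at the floor in both pools. The summed levels of the 18 were 3305, 2647, 2366 and 2443 units in the unexposed, 6, 18 and 90 h pools. Batf, an AP-1 type factor of lymphocytes, fell 3.33-fold, and its levels were 358, 131, 108 and 128 units in the unexposed, 6, 18 and 90 h pools. Ccl5, a chemokine stored by cytotoxic cells, fell 3.0-fold, with 269, 115, 89.6 and 153. So both were low in every exposed pool, against the same unexposed array. Klra7, an NK receptor, was 1.63-fold lower, Cd2, a T cell adhesion protein, 1.59-fold lower and Prf1, perforin, at least 1.54-fold lower. Outside the lists Ptprc, which encodes CD45 on all white cells, fell 2.04-fold by its brightest probe set and had -0.44 by its other one; it was chosen after its value was seen. Coro1a, an actin-binding protein of white cells, was 1.87-fold lower.

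Antigen presentation genes were lower in the class II chains. H2-Ab1 was at 889.6 units in the unexposed pool and 488 units at 18 h (1.82-fold lower), H2-Eb1 at 1017 units in the unexposed pool and 621 units at 18 h (1.64-fold lower) and H2-Aa at 1571 units in the unexposed pool and 1028 units at 18 h (1.53-fold lower). H2-DMa, which loads peptide, was 1.57-fold lower. The invariant chain gene Cd74, which alveolar type II cells express too, read 3035 and 2878 units. Of 22 compared genes in the class II and dendritic list 5 were at least 1.5-fold lower, 22.7% against 6.13% of all genes. In that list 1 gene rose. That gene was Ccl17, a chemokine that draws T helper cells, which rose at least 2.65-fold from the floor to 206 units.

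Interferon-stimulated genes were below 0 in 30 of 38 cases, with a median of -0.16. Gbp2 and Igtp, GTPases that interferon gamma induces, fell 2.14-fold and 2.09-fold, and Irf7 was 1.65-fold lower. None was at least 1.5-fold higher. The 12 mast cell, basophil and eosinophil genes had a median of -0.34, and all 6 granule protease genes lay below 0, among them Tpsab1, a tryptase, 1.55-fold lower. Hdc, which makes histamine, was 1.75-fold higher against them.

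Chemokine, macrophage and neutrophil genes were more often below 0 than above, with members in both directions. Of 35 compared chemokine, cytokine and receptor genes 23 were below 0, 2 rose and 1 fell, with a median of -0.16. At least 1.5-fold higher were 3 (8.57%, against 6.79% of all genes), and as much lower 4 (11.4%, against 6.13%). Neutrophil and S100 genes had 12 of 19 below 0, and their median of -0.06 turned to 0.06 without scaling. Besides Ccl17, Cxcl14, a chemokine of epithelium and fibroblasts, rose 2.07-fold, and Ccl2, which draws monocytes, was at least 1.74-fold higher. Il1b was 1 of 28 genes at the floor in both pools, of 63 of the list on the array. Macrophage genes had a median of -0.21 and summed levels of 15705 and 13972 units. Of 33 compared, 22 were below 0, 4 were at least 1.5-fold lower and 3 as much higher. The 2 that rose were Cd14 and Lgals3, and 0 fell. Siglec1, a sialic acid receptor of macrophages, was at least 1.78-fold lower, Tyrobp, a signalling adaptor, 1.44-fold lower, and Laptm5, a lysosomal protein of white cells, 1.55-fold lower, while Ctsk, a collagen-degrading cathepsin, was at least 1.71-fold higher. Of the granulocyte markers S100a8 and S100a9 had log2 differences of 0.06 and 0.05, and Csf3r, the receptor that neutrophils need, -0.37. Mpo, the granule peroxidase, was 1.55-fold lower. Lcn2, which belongs to this list as a granule protein, was thus higher without them.

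Club cells, the secretory cells of the bronchioles and rich in P450 enzymes, had lower marker genes. Of 17 compared members 5 were at least 1.5-fold lower (29.4%, against 6.13% of all genes), 1 of which fell, and the median was -0.35. Scgb1a1 read 10634 and 8360.0 units (1.27-fold lower) and Cyp2f2, their main P450, 3715 and 2386 units (1.56-fold lower). Cckar, a cholecystokinin receptor, fell 2.24-fold, from 276 to 123 units, and Ces1d, a carboxylesterase, was 1.6-fold lower. Chad and Pon1 were 1.91-fold and 1.89-fold lower. Of the 17 members 13 were below 0 and 4 above. Aldh3a1, an aldehyde dehydrogenase, was 1.97-fold higher, the only member at least 1.5-fold higher. The P450 list, which shares members with it, had a median of -0.20, with Cyp1a1 at least 1.79-fold lower.

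Alveolar genes were nearly flat by comparison. Among alveolar type II genes Sftpc had a log2 difference of -0.11 and Sftpb 0.29. Ctsh, a cathepsin that processes surfactant protein B, was at 685 units in the unexposed pool and 1628 units at 18 h (2.38-fold), the only one of 17 that rose. Hc, complement C5, was 1.76-fold lower. Ager, of type I cells, had -0.08. Endothelial genes had 0 of 34 members past 2-fold, and 24 of them lay below 0. Their median of -0.13 turned to 0.01 without scaling. Klf4 was the 1 member at least 1.5-fold higher, and 0 were as much lower. Among vasoactive genes Ramp1, a subunit of the CGRP receptor, was 1.75-fold lower and Vipr1, the receptor of vasoactive intestinal peptide, 1.56-fold lower. Hrh2, a histamine receptor, went from 449 units to the floor, where it stayed in all 3 exposed pools.

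Several of the largest differences belonged to genes with no like-moving relatives. Acta1, skeletal muscle actin, went from the floor to 392 units (at least 5.05-fold higher), with 611 at 6 h and the floor at 90 h. In the heart and skeletal muscle list 26 of 36 compared genes were below 0, with a median of -0.17, summed levels of 11262 and 10205 units, and Mb, myoglobin, 1.51-fold lower. Ankrd1, a nuclear cofactor of stretched muscle and wounded tissue, rose 3.7-fold, from 101 to 374 units. Rpl39l, a ribosomal protein paralog of testis, read 826 units at 18 h and was at the floor in the unexposed, 6 and 90 h pools (at least 10.6-fold higher). None of the 26 genes of the ribosomal protein list was 1.5-fold higher.

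Emc10, a membrane insertase subunit, and Dhrs1, a short-chain dehydrogenase, were at the floor in the unexposed pool alone. Both read exactly 0.0 there, on the array with the most exact zeros (184, against 105 at 18 h). The second probe set of Emc10 was at the floor in the unexposed and 18 h pools. Whether the 0.0 readings reflect a failed reading was not tested. Emc10 read 308, 367 and 396 units at 6, 18 and 90 h, and Dhrs1 242, 293 and 263. Lhx6, a homeobox gene, showed the mirror image, with 699, 118, 119 and 123 units in the unexposed, 6, 18 and 90 h pools. Dnajc1, an endoplasmic reticulum co-chaperone, was 3.18-fold lower at 18 h, with 109, 142 and 129 units at 6, 18 and 90 h. All 3 exposed pools are set here against the same unexposed array. Other levels were closer to the unexposed one at 6 or 90 h. Cuta read 356, 277, 90.6 and 395 units by a marked probe set, Bcan, a brain proteoglycan, 522, 195, 166 and 433, and Arfip2, an arfaptin of vesicle membranes, 124, 166, 412 and 195.

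Further probe sets of the same gene gave a partial check. Of the 96 genes that rose, 18 had another compared probe set, whose median was above 0 for 13 and at least 2-fold higher for 7. Of the 57 that fell, 9 had one, below 0 for 7 and at least 2-fold lower for 0. A suffix that marks possible cross-hybridisation stood on the probe sets of 11 and 14 of them. Bphl, a hydrolase, fell 2.64-fold by such a probe set and had -0.53 as the median of others, and Cadps and Gkap1 fell by marked probe sets as well. Chmp2a, of the ESCRT-III complex, rose 3.37-fold, from 156 to 526 units, and Kcna7, a potassium channel, fell 2.54-fold, each by a single unmarked probe set. Elp5 and Jade1 fell at least 3.49-fold and at least 2.56-fold, to the floor.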

How the data were processed

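Values are the authors' deposited linear intensities, 1 for each probe set on each array, and how they were background-corrected or scaled before deposit is not given in the sources available here. Of 12488 probe sets 66 were controls, 10833 of the others had 1 gene symbol in the platform annotation, and those with several or none were not counted as genes. Scaling equalised the 4 arrays' means after trimming 2% at each end (factors 1.07 for unexposed, 0.970 for 18 h). Values under the 40th percentile, 77.7 units, were set to that floor before log2. A gene was represented by its brightest probe set. The unexposed array had 184 exact zeros, and the 6, 18 and 90 h arrays had 102, 105 and 126. Named genes were the 12 highest and 12 lowest measured differences, the 6 largest bounds per direction, and members of 60 lists furthest from 0 or given as a contrast; other names are marked as chosen after their values. The lists, subgroups and promoters were chosen with earlier results of these data known. The arrays' number limits the precision. Counting was tested on simulated data, with folds placed only in genes well above the floor. That test therefore does not cover bounds or genes near the floor. Alternatives were other scalings (none, median, quantile, cyclic loess with limma 3.58.1), floors, a pseudocount of 50, averaged probe sets, no marked probe sets, no bounds, and other fold thresholds. Analyses ran in Python 3.11.15. Promoter windows are from RefSeq.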

Additional observations from a re-analysis of the deposited data

Results flagged for a closer look

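Outside the named genes, 838 probe sets with no gene symbol or with several were above the floor in at least 1 of both pools. Of these, 14 (1.67%) were at least 2-fold higher at 18 h and 10 (1.19%) at least 2-fold lower. They are listed because no comparison of named genes used these probe sets. The shares are near those of named genes, 1.59% and 0.944%, so the counts do not set these probe sets apart.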

How the results depend on the processing

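No paired analysis was possible because each group is 1 array, and no replicate could be left out. A floor at the 25th percentile turned the 96 higher genes into 153. The 57 lower ones became 32 without scaling, 29 with a floor at the 60th percentile, and 29 where a pseudocount replaced it. The share higher, 62.7%, became 81.6% without scaling and 72.9% with a pseudocount. At 1.5-fold the counts were 410 and 370 (52.6% higher), at 3-fold 24 and 9. The acute phase median of 0.01 became 0.50 without scaling, 0.31 and 0.42 with the lower and higher floor, 0.36 with averaged probe sets, 0.36 without marked probe sets and 0.41 without bounds. Median, quantile and cyclic loess scaling gave it 0.21, 0.205 and 0.22, and a pseudocount 0.20. The clotting median of 0.16 became -0.18 with the lower floor and -0.18 without bounds. Gkap1 turned to 0.18 without marked probe sets. The cause of these shifts was not tested. Of the 60 list medians 15 took the other sign under at least 1 alternative, among them those of endothelial, complement, ATF4 and EGF receptor genes, and 45 kept 1 sign under every alternative that gave a value. The thymus list gave none with the higher floor. Of the named genes, 35 of 80 past 2-fold stayed past it under every one that gave a value. With averaged probe sets 21 of the 80 came under 2-fold, among them Hspb8, Mgst3, Egr1, Sec23b and Fdps. Probe sets near the floor carry little signal over background, which limits what can be said of dim genes.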

Other observations

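A few genes outside the lists stood at least 2-fold away from unexposed lungs at high levels, and are given here as values, chosen after they were seen. Pltp, which transfers phospholipid between lipoproteins, read 1667 and 811 units in the unexposed and 18 h pools (2.05-fold lower), against 1414 at 6 h and 1406 at 90 h. Apoa1, the main apolipoprotein of high-density lipoprotein, read 1322 and 647 units (2.04-fold lower), with 979.7 at 6 h and 1109 at 90 h. Both were lowest in the 18 h pool, as was Nr1h4, the bile acid receptor FXR, with 711, 435, 351 and 417 units in the unexposed, 6, 18 and 90 h pools. Each of the 3 was read by a single unmarked probe set.

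Among higher genes of this kind, Gja1, the gap junction protein connexin 43, went from 579.5 to 1359.6 units (2.35-fold) by a marked probe set. Cstb, an inhibitor of cathepsins, read 532 and 1093 units (2.05-fold higher), in the same pool in which the cathepsin gene Ctsh was 2.38-fold higher. Ctps, which makes CTP for RNA and phospholipid, was 2.55-fold higher, and Acot7, an acyl-CoA thioesterase, 2.69-fold higher. Vmp1, a membrane protein of autophagy, was 2.07-fold higher.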
